A study of Arabidopsis thaliana with 8 samples.

Results

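The entries described here are transposon genes on the chromosome arms of Arabidopsis thaliana. They are the rows of the deposited expression tables whose identifier carries a transcript suffix (a dot and a digit), a form that the tables use almost only for transposon genes, and whose midpoint lies outside a pericentromeric window on each chromosome. In Mb, these windows are 12 to 18 of chromosome 1, 1 to 7 of chromosome 2, 11 to 17 of chromosome 3, 2 to 6 of chromosome 4 and 9 to 16 of chromosome 5. The rule took 382 of the 34133 entries of a table, from 380 loci, and left 1591 suffixed entries inside the windows. By chromosome, 85 lay on chromosome 1, 63 on chromosome 2, 71 on chromosome 3, 106 on chromosome 4 and 57 on chromosome 5. Of the 382, 118 lay within 1 Mb of a window edge.

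Polyadenylated RNA of whole seedlings aged 10 days, all of the Col-0 background and raised on medium plates in long days, was sequenced in 8 libraries. Wild type (WT) had 2 libraries and mom1 had 2, while pial2, nrpe1 and the combined mutants labelled pial1/2 and mom1pial2 had 1 each. Each of the 6 tables sets 1 mutant library against 1 WT library: WT replicate 1 serves mom1 replicate 1, nrpe1 and pial1/2, whereas WT replicate 2 serves mom1 replicate 2, mom1pial2 and pial2. The labels name no alleles and do not say whether the libraries came from separate cultures, so the spread between replicates may be technical, and the mutants with 1 library have no replicate check. The deposited tables give the 2 mom1 libraries different sample names, so it is not known whether both carry the same allele.

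Transposons are mobile DNA that plant cells keep silent through DNA methylation and compact chromatin. In the pericentromeres they lie in large blocks of heterochromatin, whereas on the arms many, though not all, sit singly among active genes. There RNA-directed DNA methylation, which needs the RNA polymerase V subunit NRPE1, has much of its work. MOM1 silences transcription with little loss of DNA methylation, and PIAL1 and PIAL2 are SUMO ligase-like proteins that the series title names as its partners. Retrotransposons of the LTR class are framed by a direct repeat at each end, and the upstream copy starts transcription.

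All 382 entries matched a locus of the TAIR10.1 annotation, which classes 380 as pseudogenes and 2 as protein-coding. The entries ranged from 176 to 10188 bases with a median of 1790 bases. A flanking pair of direct repeats (at least 100 bases at 80% identity, searched within 1500 bases of each end) was found for 67 of them, or 17.5%. Many entries have close copies: 117 had more than 50% of their 50-base windows elsewhere in the genome, where reads of such a length cannot be placed with certainty, and 123 had none. A total of 135 shared an interval or a locus with another entry.

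The sequences below belong to the members on which the results turn. The first 4 are repeats that lie just upstream of the entry, read from TAIR10.1 on the strand of the entry, 5′ to 3′, and capitals mark bases that differ from the downstream copy. The repeats of AT5G44925.1 (120 bases) and of AT4G16870.1 (130 bases) are identical to their downstream copies, at chr5:18142156-18142275 and chr4:9483836-9483965. Those of AT3G54823.1 and AT1G58561.1 are longer and had identities of 98.54% and 98.37%, so only the first 150 bases of each are shown.
AT5G44925.1, upstream repeat, chr5:18146778-18146897, minus strand: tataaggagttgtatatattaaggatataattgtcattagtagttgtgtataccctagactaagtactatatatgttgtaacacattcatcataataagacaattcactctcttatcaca
AT4G16870.1, upstream repeat, chr4:9488459-9488588, minus strand: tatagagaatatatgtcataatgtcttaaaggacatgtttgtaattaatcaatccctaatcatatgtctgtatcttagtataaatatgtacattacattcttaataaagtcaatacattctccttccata
AT3G54823.1, upstream repeat, chr3:20310018-20310167, minus strand: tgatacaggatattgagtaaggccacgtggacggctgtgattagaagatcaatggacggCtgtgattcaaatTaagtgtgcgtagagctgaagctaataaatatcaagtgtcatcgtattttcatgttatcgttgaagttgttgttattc
AT1G58561.1, upstream repeat, chr1:21748194-21748343, plus strand: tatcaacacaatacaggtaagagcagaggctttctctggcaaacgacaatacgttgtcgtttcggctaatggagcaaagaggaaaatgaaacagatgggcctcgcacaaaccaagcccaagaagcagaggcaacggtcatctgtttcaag
The other 2 members, AT4G04130.1 and AT3G13270.1, have several exons and no such repeat pair, and the first 100 bases of each annotated entry are shown; both begin with the letters atg.
AT4G04130.1, start of the entry, chr4:1977183-1977282, plus strand: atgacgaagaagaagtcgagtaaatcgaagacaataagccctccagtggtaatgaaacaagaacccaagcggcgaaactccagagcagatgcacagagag
AT3G13270.1, start of the entry, chr3:4288233-4288332, minus strand: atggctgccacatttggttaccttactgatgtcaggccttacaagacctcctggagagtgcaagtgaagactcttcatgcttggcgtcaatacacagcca

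Levels are given as the authors' deposited FPKM, a count of fragments scaled to transcript length and library size. For entries with 1 exon and an interval of their own the FPKM values are whole multiples of 1 fragment, so the number of fragments behind a value could be recovered. All 110 to 254 such values of up to 20 fragments per library came out within 0.05 of a whole number, after a length offset and a depth scale had been fitted per library to make them whole. The depth scale ran from about 27000000 to 36200000 fragments, except for mom1 replicate 1 at about 54100000. That library also had a value above 0 for 132 of the 382 entries, against 86 to 106 in the other 7.

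The mutated genes were read first, as a check of the labels. MOM1 stood at 6.10 and 4.90 FPKM in WT, at 1.61, 1.15 and 1.29 FPKM in the mom1 and mom1pial2 libraries, and at 4.13 to 5.82 FPKM in the rest. PIAL2 stood at 1.96 FPKM in pial2 and 2.13 FPKM in mom1pial2 but at 4.79 FPKM in pial1/2, where WT had 6.51 and 5.42 FPKM. PIAL1 was at 11.3 FPKM in pial1/2 against 11.8 FPKM in WT replicate 1, so these levels alone do not check the pial1/2 label. NRPE1 was at 1.16 FPKM in nrpe1 against 4.61 and 3.01 FPKM in WT. Of 4 photosynthesis markers of seedling tissue all were at 1265 FPKM or more in every library, and none of 4 floral genes reached 1 FPKM in any. The root genes PRP3 and PHT1;1 stood at 21.6 to 36.7 and 7.68 to 16.1 FPKM. The authors' deposited tables called PRP3 lower in mom1 replicate 2 (22.3 against 36.7 FPKM, q = 0.0136) and pial2 (24.97 against 36.7 FPKM, q = 0.0268), and PHT1;1 lower in pial1/2 (10.5 against 16.1 FPKM, q = 0.00375). The seed storage genes CRU3 and OLEO1 were at 3.18 and 2.63 FPKM in WT replicate 2 and at 2.80 and 1.27 FPKM in mom1pial2, against at most 0.321 FPKM in the other 6 libraries, and CRU3 was called lower in mom1 replicate 2 and pial2. The part of the root and seed genes in the results on arm entries was not tested.

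Most arm entries gave little or no transcript. In all 8 libraries 186 of the 382 were listed at 0, and only 37 reached 1 FPKM in any library. Between 23 (pial2) and 32 (mom1pial2) reached 1 FPKM in a given library, which is 6.02% to 8.38% of the entries. Over all entries of the tables that share was 57.0% to 57.6%, and over the suffixed entries inside the windows it was 1.13% to 3.02%.

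Most arm entries were not tested against WT by the authors, and 9 were called different in at least 1 table. An entry is called here when the q-value of the authors' own comparison of its 2 libraries lies below 0.05. The authors' comparison tested 43 to 48 arm entries per table, 55 in any table, and left 327 untested throughout. The authors' deposited tables made 16 calls in all on these 9 entries. In both directions together they called 12.5% of the tested arm entries in mom1 replicate 1 (2.12% of all tested entries), 2.33% in mom1 replicate 2 (2.34%), 8.70% in pial1/2 (1.19%), 4.65% in pial2 (2.44%), 4.65% in mom1pial2 (1.98%) and 2.22% in nrpe1 (1.87%). The arm share thus lay above that of all entries in every table except mom1 replicate 2, though on only 1 or 2 calls in pial2, mom1pial2 and nrpe1, and the difference was not tested. Arm entries classed as pseudogenes but without a suffix, outside the rule, also had shares above those of all entries. These were 3.03% in mom1 replicate 1, 5.0% in mom1 replicate 2 and 1.71% in pial1/2. In pial2, mom1pial2 and nrpe1 they were 3.75%, 5.26% and 6.35%. Whether an entry was tested may depend on its mutant library. AT5G44925.1, with 1 fragment in WT, was tested only in mom1 replicate 1 and pial1/2, where it had 132 and 43 fragments. It was called in both, so this filter may raise the arm share, by an amount that was not tested.

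Of 48 arm entries tested in mom1 replicate 1, 5 were called higher (background over all tested entries 0.999%) and 1 was called lower (background 1.12%). In mom1 replicate 2, 1 of 43 was called higher (background 0.979%) and 0 lower (background 1.36%). The mom1 replicate 1 library had the highest depth scale, about 54100000 fragments. The part of depth in the counts of its table, for arm or window entries, was not tested. The pial1/2 table called 4 of 46 higher (background 0.7%) and 0 lower (background 0.489%). The pial2 table called 1 of 43 higher (background 0.844%) and 1 lower (background 1.6%), and the mom1pial2 table likewise called 1 of 43 higher (background 0.824%) and 1 lower (background 1.16%). In nrpe1, 1 of 45 was called higher (background 1.2%) and 0 lower (background 0.67%).

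Inside the windows the share called higher was larger in each table, at 42 of 101 in mom1 replicate 1, 25 of 66 in mom1 replicate 2, 21 of 57 in pial1/2, 27 of 67 in mom1pial2, 10 of 45 in nrpe1 and 3 of 33 in pial2. The difference between arm and window entries was not tested. The same limit of the filter holds here, since the window entries tested ran from 33 in pial2 to 101 in mom1 replicate 1. The tables of a set share their WT library, so a call in several of them is not several independent calls. In bulk RNA, fewer cells of a type and less RNA per cell cannot be told apart.

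**Figure D1:**
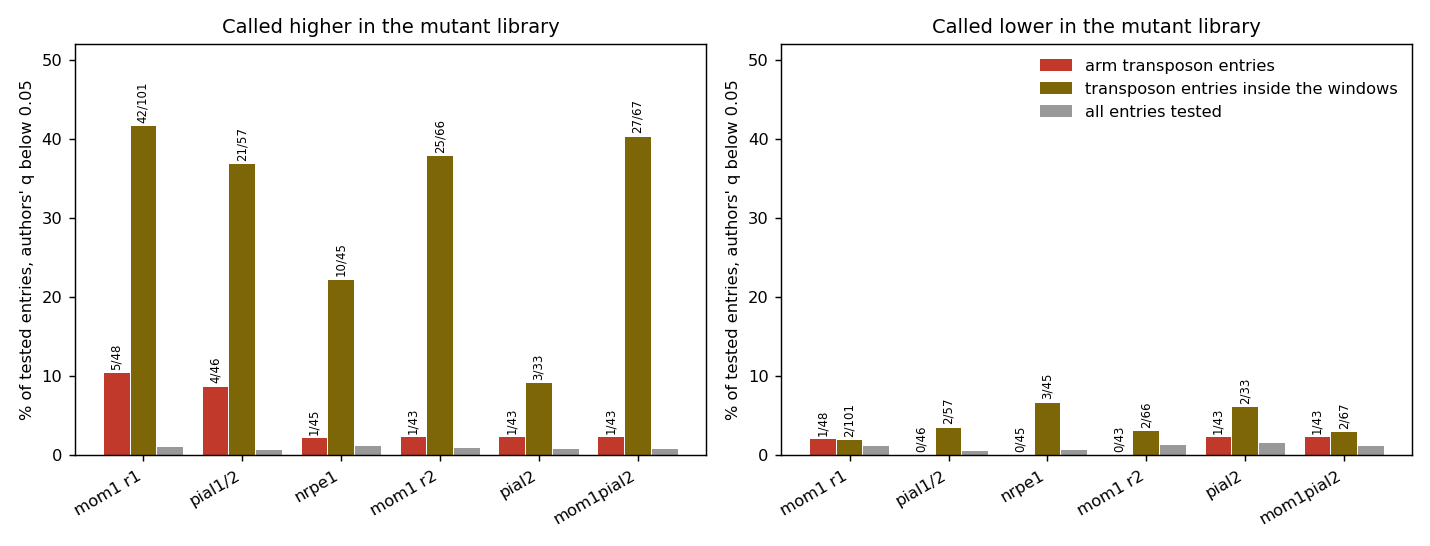
Percent of the entries tested by the authors that were called at q below 0.05, higher (left) or lower (right) in the mutant library, for the 6 tables. Red bars are arm transposon entries, brown bars are transposon entries inside the windows and grey bars are all entries; the labels on the bars give called over tested, such as 5 of 48 arm entries and 42 of 101 window entries higher in mom1 replicate 1.

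In mom1, the only mutant with replicates, no arm entry passed the test across both libraries. The within-table log2 ratios of FPKM plus 1 were fitted with limma over all 20517 entries that reached 1 FPKM in any of the 4 libraries, 33 of them arm entries, 3 of which reached it only in mom1 and 2 only in WT. With limma's Benjamini-Hochberg adjustment at 0.05, 0 arm entries were higher (18 of 20517 over all entries, background 0.0877%) and 0 were lower (background 0.0%). The fit thus did not call MOM1 itself lower, at log2 ratios of -1.44 and -1.46 in the 2 mom1 tables. With only 2 ratios per entry, 0 of 33 does not show that the arm entries kept their WT level. At an unadjusted p below 0.05 limma gave 7 of 33, 4 higher and 3 lower, where all entries gave 6.09%, and the lowest adjusted p of an arm entry by limma was 0.262. By the authors' q-values 1 of the arm entries was called higher in both mom1 tables (background 0.518%) and 0 were called lower in both (background 0.25%).

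The measured arm entries as a group lay near their WT level. Over those that reached 1 FPKM in the WT or the mutant library of a table (28 to 32 entries), the median log2 ratio was 0.04 in mom1 replicate 1, -0.05 in mom1 replicate 2, 0.04 in pial1/2, -0.14 in pial2, -0.05 in mom1pial2 and -0.03 in nrpe1. Over all entries with the same minimum the medians lay between -0.01 and 0.01. The entries that reached the minimum through the mutant alone numbered 3, 3, 3, 0, 4 and 1 in the same order of tables, and those that reached it through WT alone numbered 0, 2, 0, 5, 0 and 2. The table with the lowest median, pial2, thus had 5 of its 28 entries in through WT alone and none through the mutant alone.

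**Figure D2:**
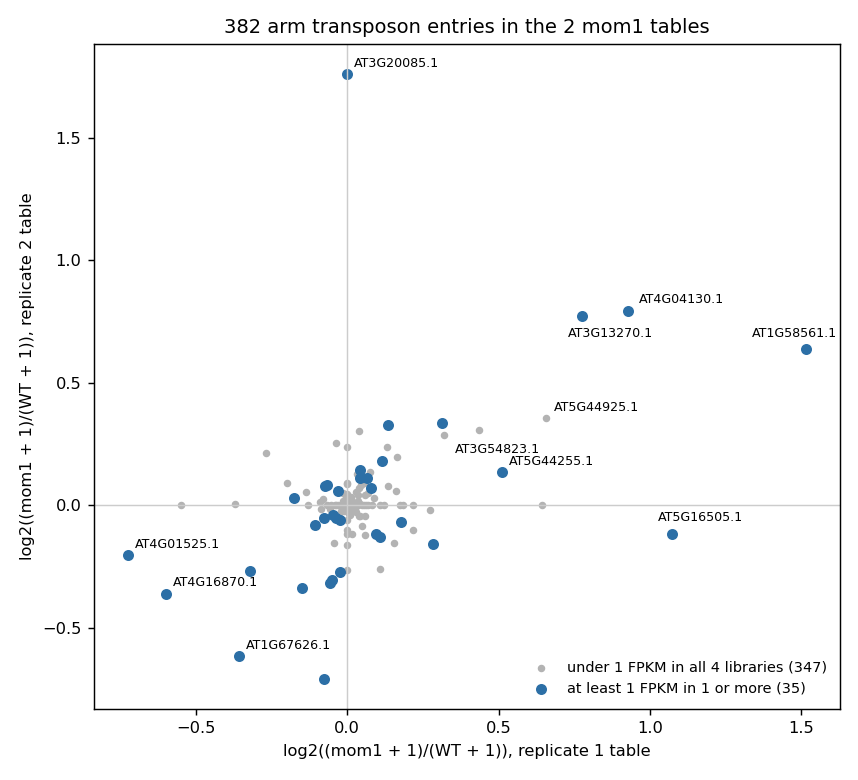
Log2((mom1 FPKM + 1)/(WT FPKM + 1)) of the 382 arm entries in the mom1 replicate 1 table (horizontal) and the mom1 replicate 2 table (vertical); blue points reached 1 FPKM in at least 1 of the 4 libraries and grey points in none. Most points lie near 0, and AT4G04130.1 (0.93 and 0.80), AT3G13270.1 (0.78 and 0.77) and AT1G58561.1 (1.52 and 0.64) lie high on both axes.

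The arm entry called most often, AT4G04130.1, lies at the very edge of the arm. It spans chr4:1977183-1982785 on the plus strand with 11 exons, its midpoint 0.02 Mb outside the chromosome 4 window, and 9.79% of its 50-base windows occur elsewhere. Its level was 0.114 and 0.133 FPKM in the WT libraries, 1.12 and 0.966 FPKM in mom1, 0.797 FPKM in pial1/2, 0.869 FPKM in pial2, 1.02 FPKM in mom1pial2 and 0.0408 FPKM in nrpe1. Every library of a MOM1 or PIAL mutant was above both WT libraries, and nrpe1 was below them. The 2 nearest entries without a suffix on each side were listed at 0.128 FPKM or less in all 8 libraries.

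This entry has 11 exons, so the condition for recovering fragments was not met and its fragment numbers are approximate. Its value in mom1 replicate 2 lay -0.199 from a whole number, and the others came within 0.05 of one. The values correspond to about 14 fragments in each WT library and to 206, 96, 96, 85, 93 and 5 fragments in mom1 replicate 1, mom1 replicate 2, pial1/2, pial2, mom1pial2 and nrpe1. The FPKM ratio to WT was 9.80 in mom1 replicate 1 (exact 95% interval 5.71 to 18.2) and 7.27 in mom1 replicate 2 (4.14 to 13.8). In nrpe1 it was 0.357 (0.101 to 1.05), which includes 1. Such intervals cover counting error only, and here they rest on the approximate numbers. The q-values in the authors' deposited tables were 8.37e-08, 2.21e-05, 3.21e-06, 6.12e-07 and 1.56e-05 for mom1 replicate 1, mom1 replicate 2, pial1/2, pial2 and mom1pial2, and nrpe1 was not tested.

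On the log2(FPKM + 1) scale the mom1 ratio averaged 0.86 ± 0.09 (SD, n = 2), and limma's adjusted p was 0.262.

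The window entry nearest to the same edge, AT4G04170.1, lies 0.016 Mb inside it. It was listed at 0.00627 and 0.0219 FPKM in WT, 10.0 and 7.52 FPKM in mom1, 3.96 FPKM in pial1/2, 6.17 FPKM in mom1pial2, 0.118 FPKM in pial2 and 0.0314 FPKM in nrpe1. Of the other arm entries near an edge with at least 1 FPKM in any library, AT4G10690.1 (0.591 Mb outside) stood at 1.68 to 2.11 FPKM and AT4G11200.1 (0.829 Mb outside) at 0.451 to 1.65 FPKM. Inside the other edges, AT2G03540.1 (0.0741 Mb) stood at 0 to 1.12 FPKM and AT3G29120.1 (0.0989 Mb) at 1.40 to 2.57 FPKM.

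**Figure D3:**
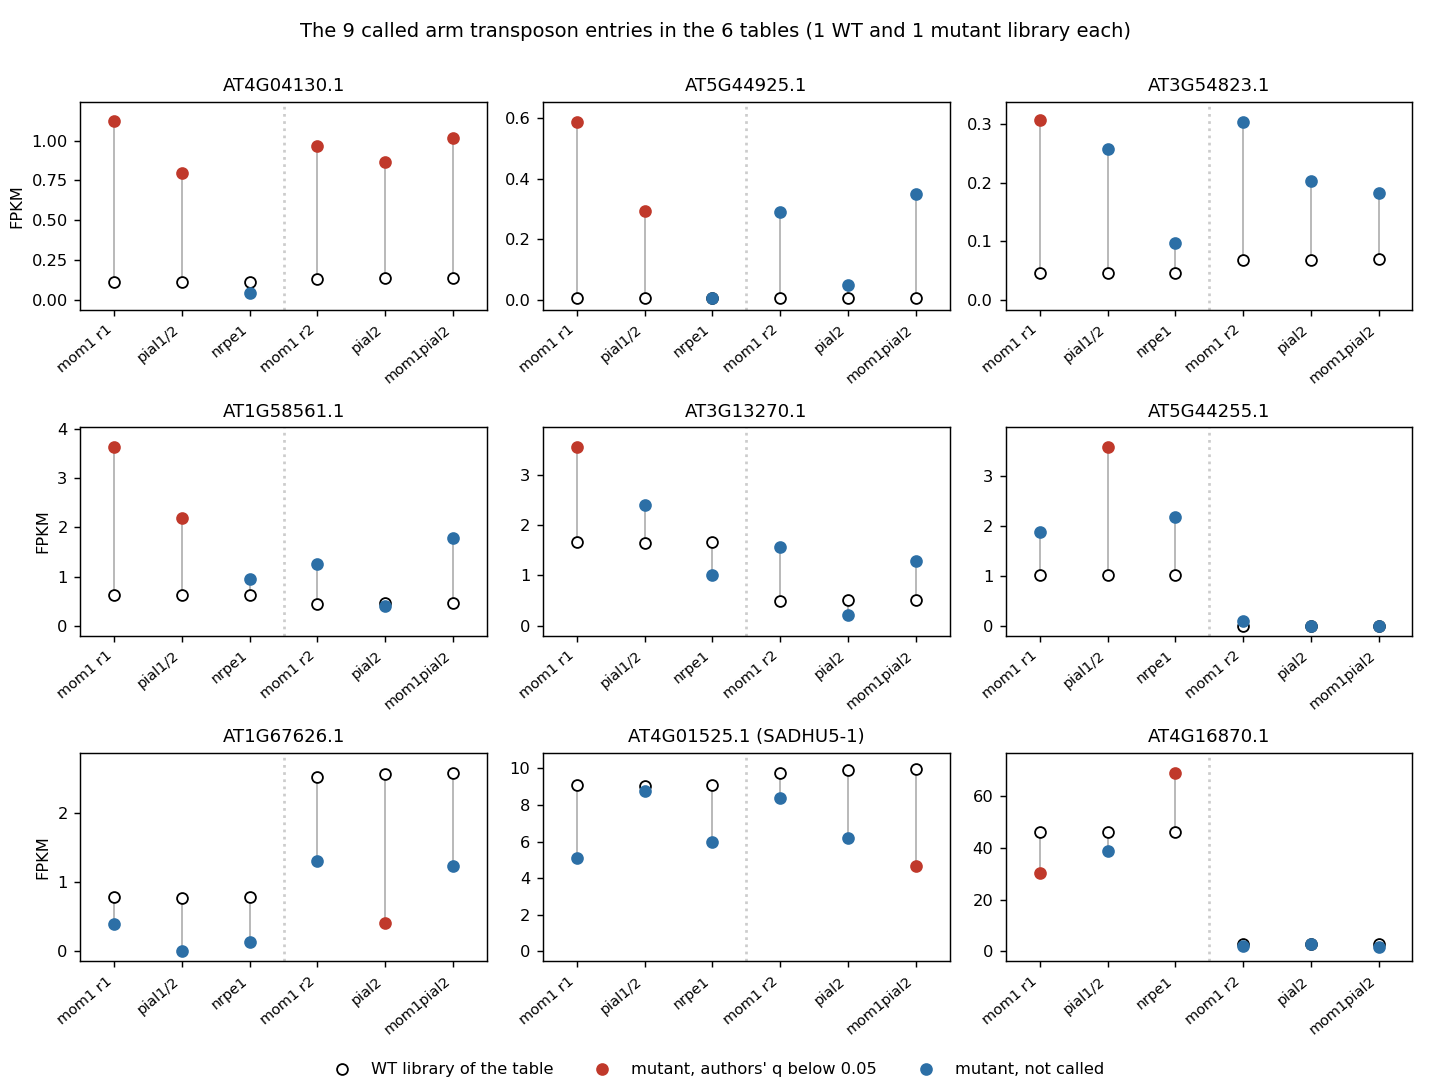
FPKM of the 9 called arm entries in each table, with the WT library of the table as an open circle and the mutant library as a filled circle, red where the authors' q is below 0.05 and blue otherwise; the dotted line separates the tables of WT replicate 1 (left) from those of WT replicate 2 (right), and each panel has its own linear axis. AT4G04130.1 is red in 5 tables, and AT4G16870.1 is at 30.2 to 69.1 FPKM on the left and at 1.81 to 2.97 FPKM on the right.

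The next 3 called entries are framed by direct repeats, as LTR retrotransposons are, and were higher in mom1 replicate 1. AT5G44925.1 (chr5:18142274-18146632, minus strand), whose repeats are identical, was nearly silent in WT. It had 1 fragment in each WT library and 1 in nrpe1, 132 and 35 in mom1 replicates 1 and 2, 43 in pial1/2, 39 in mom1pial2 and 6 in pial2. In FPKM this was 0.00668 and 0.00776 in WT, 0.588 and 0.289 in mom1, 0.292 in pial1/2, 0.348 in mom1pial2, 0.0501 in pial2 and 0.00668 in nrpe1.

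Both mom1 libraries, pial1/2 and mom1pial2 thus lay well above both WT libraries, and nrpe1 did not. The FPKM ratio to WT was 87.9 in mom1 replicate 1 (exact 95% interval 15.5 to 3498) and 37.2 in mom1 replicate 2 (6.25 to 1509), wide because WT had a single fragment. In pial2 it was 6.35 (0.770 to 292), which includes 1. The entry was called in the authors' deposited tables of mom1 replicate 1 (q = 0.000132) and pial1/2 (q = 0.0234) and was not tested in the others. It never reached 1 FPKM, so it did not enter the limma fit, and none of its 50-base windows occurs elsewhere.

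AT3G54823.1 (chr3:20305300-20309796, minus strand), which likewise has no 50-base window elsewhere, had 7 and 9 fragments in WT, 71 and 38 in mom1, 39 in pial1/2, 25 in pial2, 21 in mom1pial2 and 15 in nrpe1. Each mutant library lay above both WT libraries. The FPKM ratio to WT was 6.76 in mom1 replicate 1 (exact 95% interval 3.11 to 17.4), 4.48 in mom1 replicate 2 (2.13 to 10.5), 5.69 in pial1/2 (2.52 to 15.1), 2.94 in pial2 (1.33 to 7.15), 2.63 in mom1pial2 (1.16 to 6.53) and 2.14 in nrpe1 (0.822 to 6.21).

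In the authors' deposited tables it was called in mom1 replicate 1 (q = 0.00362) and not tested in the other 5. Its values of 0.0453 to 0.306 FPKM kept it out of the limma fit.

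AT1G58561.1 (chr1:21748675-21753246, plus strand) lies inside an intron of a gene. It overlaps no exon of AT1G58602, on the same strand, and sits 2175 bases past one exon and 637 bases before the next, so reads of the unspliced transcript of AT1G58602 would also fall in it. It had 98 and 61 fragments in WT, 860 and 160 in mom1, 339 in pial1/2, 209 in mom1pial2, 51 in pial2 and 150 in nrpe1. In FPKM this was 0.623 and 0.450 in WT, 3.64 and 1.25 in mom1, 2.19 in pial1/2, 1.78 in mom1pial2, 0.405 in pial2 and 0.954 in nrpe1.

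The libraries of mom1, pial1/2, mom1pial2 and nrpe1 stood above both WT libraries, and pial2 did not. The FPKM ratio to WT in nrpe1 was 1.53 (exact 95% interval 1.18 to 2.00), against 5.84 in mom1 replicate 1 (4.74 to 7.28) and 2.79 in mom1 replicate 2 (2.06 to 3.81). In the authors' deposited tables it was called in mom1 replicate 1 (q = 0.0152) and pial1/2 (q = 0.0368). It was tested and not called in mom1 replicate 2, pial2, mom1pial2 and nrpe1. On the log2(FPKM + 1) scale its mom1 ratio averaged 1.08 ± 0.62 (SD, n = 2), and limma's adjusted p was 0.665.

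The host gene itself was called higher in the authors' deposited pial1/2 table (26.7 against 18.8 FPKM, q = 0.038). In mom1 it was at 24.6 against 18.9 FPKM (replicate 1) and 26.8 against 25.9 FPKM (replicate 2), and it was called in neither table.

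AT3G13270.1 (chr3:4285851-4288332, minus strand) has 9 exons, no repeat pair and no 50-base window elsewhere. Its level was 1.66 and 0.496 FPKM in WT, 3.55 and 1.56 FPKM in mom1, 2.39 FPKM in pial1/2, 0.212 FPKM in pial2, 1.29 FPKM in mom1pial2 and 0.999 FPKM in nrpe1. Both mom1 libraries exceeded the WT library of their table, but the WT libraries differed from each other by more than some mutants did from WT. In the authors' deposited tables it was called in mom1 replicate 1 (q = 0.0260), and mom1 replicate 2 had q = 0.0700. By limma its mom1 log2 ratio was 0.77, with an adjusted p of 0.270.

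AT5G44255.1 (chr5:17827733-17828292, plus strand, 560 bases) was called higher in pial1/2 alone (authors' deposited table, q = 0.0432). It had 13 fragments in WT replicate 1, 45 in pial1/2, 36 in mom1 replicate 1 and 28 in nrpe1, and 0 or 1 in WT replicate 2 and the mutants set against it. The entry was therefore measurable only in the libraries that share WT replicate 1. Its neighbour AT5G44260, the zinc finger gene TZF5 at a distance of 1326 bases, was at 75.3 FPKM in WT replicate 1 and 12.3 FPKM in WT replicate 2, and at 74.6 FPKM in pial1/2. The authors' deposited tables called TZF5 lower in mom1 replicate 1 (47.0 against 75.3 FPKM, q = 0.00148), where AT5G44255.1 was at 1.87 against 1.01 FPKM and not called. TZF5 was also called lower in pial2 (authors' q = 9.58e-05) and mom1pial2 (authors' q = 0.000263).

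One lower call each was made in mom1 replicate 1, pial2 and mom1pial2, on 3 different entries. AT1G67626.1 (chr1:25343437-25344066, minus strand) had about 33 fragments in WT replicate 2 and 5 in pial2, an FPKM ratio of 0.160 (exact 95% interval 0.0488 to 0.413), and q = 0.0105 in the authors' deposited table. It stood at 0.782 and 2.53 FPKM in WT, 0.391 and 1.30 FPKM in mom1, 0 in pial1/2, 0.412 FPKM in pial2, 1.23 FPKM in mom1pial2 and 0.130 FPKM in nrpe1. Each mutant library was below the WT library of its table, and 46.1% of the entry's 50-base windows occur elsewhere.

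SADHU5-1 (AT4G01525.1, chr4:660810-661698, plus strand) belongs to Sadhu, a family of non-coding retrotransposons. It was at 9.08 and 9.76 FPKM in WT, 5.10 and 8.35 FPKM in mom1, 8.74 FPKM in pial1/2, 6.22 FPKM in pial2, 4.69 FPKM in mom1pial2 and 6.0 FPKM in nrpe1. Each mutant library was below the WT library of its table. Of the authors' deposited tables, that of mom1pial2 alone called it (q = 0.0226), and 60.2% of its 50-base windows occur elsewhere.

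AT4G16870.1 (chr4:9483955-9488397, minus strand) was called in opposite directions, and its level was the highest of the arm entries in the libraries that share WT replicate 1 but not in the others. It was at 46.3 FPKM in WT replicate 1, 30.2 FPKM in mom1 replicate 1, 39.1 FPKM in pial1/2 and 69.1 FPKM in nrpe1. In the libraries of the other set it was at 2.82 FPKM in WT replicate 2, 1.97 FPKM in mom1 replicate 2, 2.97 FPKM in pial2 and 1.81 FPKM in mom1pial2. The difference between the WT libraries thus exceeded every difference between a mutant and its WT library.

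The authors' deposited tables called it lower in mom1 replicate 1 (log2 ratio -0.60, q = 0.00779) and higher in nrpe1 (log2 ratio 0.57, q = 8.52e-06). The mom1 log2 ratio averaged -0.48 ± 0.17 (SD, n = 2), and limma's adjusted p was 0.635.

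Its upstream end lies 69 bases from the annotated end of RPP4, a resistance gene against downy mildew on the same strand, and 123 bases of its upstream repeat lie within RPP4. RPP4 was at 40.8 FPKM in WT replicate 1 and 4.19 FPKM in WT replicate 2, and in nrpe1 it was at 52.2 FPKM and called higher in the authors' deposited table (q = 0.0364). In mom1 replicate 1 RPP4 was at 41.5 FPKM and was not called. Among the 37 nearest or overlapping genes of the 9 called entries, RPP4 in nrpe1 and AT1G58602 in pial1/2 were the 2 called in the same table and direction as their entry.

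A group of 21 arm entries reached 1 FPKM in all 8 libraries. Their median share of 50-base windows found elsewhere was 0%, and 3 of them had a repeat pair. The authors called 2 of them, AT4G16870.1 and SADHU5-1, and in the remaining 19 the log2 ratios ran from -0.39 to 0.50 over the 6 tables.

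Sadhu4-2 (AT1G03420.1), another Sadhu element, stood at 24.1 to 26.2 FPKM in the libraries that share WT replicate 1 and at 32.2 to 37.7 FPKM in the others. SADHU1-2 (AT1G30835.1) stood at 8.18 to 9.42 FPKM and 1.83 to 3.46 FPKM in the same order, while SADHU8-1 (AT1G50735.1) was listed at 0 in 7 libraries. The second entry of the SADHU1-2 locus, which carries no suffix, went the other way, at 6.57 to 7.38 FPKM and 16.6 to 19.0 FPKM. How reads were shared between these entries was not tested.

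The MUG (MUSTANG) genes are former Mutator-type transposase genes that the plant has taken into use. MUG4 (AT5G16505.2) was at 10.4 to 24.1 FPKM, MUG7 (AT3G05850.1) at 4.24 to 8.89 FPKM, MUG5 (AT3G06940.1) at 5.45 to 7.17 FPKM, MUG6 (AT5G48965.1) at 2.15 to 3.33 FPKM and MUG3 (AT1G06740.1) at 2.05 to 3.27 FPKM. None of these was called in any table, though MUG4 was not tested in mom1 replicate 1. MUG3 and MUG7 are the 2 arm entries annotated as protein-coding. CYTOSLEEPER (AT1G15300.1), related to the hAT transposases, was at 0.572 to 1.35 FPKM.

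The libraries of the 2 sets often stood apart in these entries. In 16 of the 21 the 4 libraries that share WT replicate 1 did not overlap the 4 that share WT replicate 2, with 10 higher in the former. Over all entries measured in all 8 libraries the share without overlap was 67.8%, so the arm entries were near the background. Ratios were therefore taken only within a table.

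**Figure D4:**
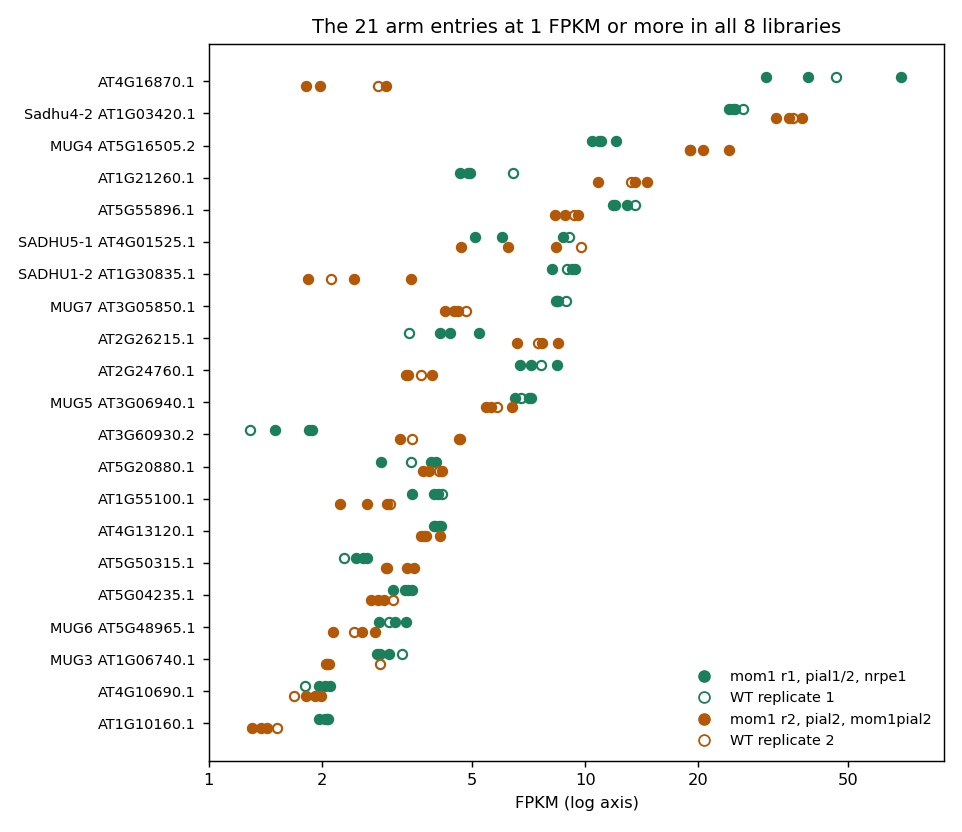
FPKM (log axis) of the 21 arm entries that reached 1 FPKM in all 8 libraries; green marks are WT replicate 1 (open) and the mutants set against it, orange marks are WT replicate 2 (open) and the mutants set against it. The sets are far apart for AT4G16870.1 and for the suffixed entry of SADHU1-2, while AT4G10690.1 lies between 1.68 and 2.11 FPKM throughout.

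ONSEN, a heat-activated copia element, is a known arm transposon with 3 copies among the entries. AT1G58140.1 was listed at 0 in all 8 libraries and AT3G59720.1 in 7, with 0.0150 FPKM in nrpe1. AT5G13205.1 had 29 and 28 fragments in WT, 54 and 15 in mom1, 27 in pial1/2, 9 in pial2, 12 in mom1pial2 and 16 in nrpe1. It was tested in mom1 replicate 1 alone and was not called there. Between 84.2% and 96.7% of the 50-base windows of these copies occur elsewhere, so fragments cannot be placed on 1 copy.

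Of 33 genes of the silencing machinery, none was called higher and 1 was called lower by the authors' deposited table of mom1 replicate 1, with 0 and 0 in mom1 replicate 2, 0 and 1 in pial1/2, 0 and 0 in pial2 and mom1pial2, and 1 and 2 in nrpe1 in the same order. Over all tested entries 1.12%, 0.489% and 0.67% were called lower in mom1 replicate 1, pial1/2 and nrpe1, and 1.2% were called higher in nrpe1. The lower call in mom1 replicate 1, that in pial1/2 and 1 of those in nrpe1 were all AGO9, an Argonaute. It was at 0.151, 0.171 and 0.109 FPKM against 1.22 FPKM in the shared WT replicate 1. In mom1 replicate 2, pial2 and mom1pial2 AGO9 was at 0.0974, 0.0988 and 0.066 FPKM against 0.321 FPKM in WT replicate 2. There it was not called and may not have been tested. The 33 genes may include others that the authors did not test, such as SUVH6. The other lower call in nrpe1 was ROS1, a DNA demethylase, at 1.84 against 16.1 FPKM. The higher call there was DCL4, a Dicer-like enzyme, at 8.90 against 6.70 FPKM (authors' deposited table, q = 0.0383).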

How the data were processed

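Per the submitters' processing notes, reads were aligned to TAIR10 with TopHat2 2.0.12 and Bowtie, quantified with Cufflinks 2.2.1 and compared with Cuffdiff; read length, strand and read filters are not given in the sources used here. Per the file headers, the authors' values are FPKM, scaled within each table, with their p-value and q-value. Because of this scaling, median values of a shared WT library varied by 0.995 to 1.02 times from table to table. Members and lists were chosen with earlier results of these data known.

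Entries listed with a status of excess data, failed or low data were left out of limma 3.58.1 (R 4.3.3), which dropped MUG4; a first fit had left out only excess data. The fit is an intercept on the 2 mom1 ratios (pseudocount 1 FPKM, two-sided), which blocks on the replicate: across 20565 entries the WT and mom1 differences between replicate numbers correlated at 0.828, and each pair shares a table. Exact intervals (Clopper-Pearson) treat fragments as independent.

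Named were members called in both mom1 tables or in at least 4 tables, up to 4 per direction of each other table, the 3 highest in WT, the 3 nearest each side of an edge and ONSEN. AT3G13270.1, AT3G54823.1, and the MUG, other Sadhu and CYTOSLEEPER entries were named after their values were seen, and the sequences, repeats (BLAST+ 2.17.0), fragments and neighbours were likewise added then. Python 3.11.15, numpy 2.4.6 and pandas 2.3.3 did the rest.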

Additional observations from a re-analysis of the deposited data

Results flagged for a closer look

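AT4G16870.1 was called in opposite directions in tables that share WT replicate 1, with a log2 ratio of 0.57 in nrpe1 and -0.60 in mom1 replicate 1. The difference between the mutants was not tested. In the mom1 replicate 2 table the log2 ratio was -0.36 and was not called (q = 0.542 in the authors' deposited table). The entry was at 46.3 FPKM in WT replicate 1 and 2.82 FPKM in WT replicate 2, and its neighbour RPP4 was at 40.8 and 4.19 FPKM in the same libraries; the part of these values in the result was not tested.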

How the results depend on the processing

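In the mom1 fit 0 members were called in either direction under each of the other pseudocount, filter, centring, left-out library and window settings that were run. With no filter (26629 entries), and with any 1 library left out (20517 entries, no replicate block), the fit called 0 entries of any kind. The count of 0 members under those settings therefore carries no information. With at least 1 FPKM required in a WT library, 4 of 20144 entries were called. Without the replicate block the fit called 0 members and 0 of 20517 entries, and the adjusted p of AT4G04130.1 by limma was 0.99996, with a range of 0.113 (pseudocount 0.1 FPKM) to 1 over the settings. With only excess data left out (a setting added after seeing the data) 35 members were tested and 0 called. The single member called higher in both mom1 tables became 0 with windows 1 Mb wider, with entries that share no interval or locus, or with a 2-fold minimum on the log2(FPKM + 1) scale, and 4 with windows 1 Mb narrower; each table alone gave 1 to 5 higher and 0 to 1 lower.

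Windows 1 Mb narrower (697 members, which takes in pericentromeric entries) called more members: higher and lower, 11 and 3 in mom1 replicate 1, 5 and 2 in mom1 replicate 2, 8 and 2 in pial1/2, 3 and 3 in pial2, 5 and 3 in mom1pial2, 4 and 2 in nrpe1, and 2 lower in both mom1 tables. Windows 1 Mb wider (264 members) lost AT4G04130.1 and left 0 called higher in mom1 replicate 2, pial2 and mom1pial2. Entries that share no interval or locus (247 members) gave 2 higher in mom1 replicate 1, 0 in mom1 replicate 2, 2 in pial1/2, 0 in pial2 and 0 in mom1pial2. At q below 0.01, 3 were higher in mom1 replicate 1 and 1 in pial1/2, and 0 were lower in pial2 and mom1pial2. With a 2-fold minimum 1 was higher in mom1 replicate 1 and in pial1/2, 0 in mom1 replicate 2, pial2, mom1pial2 and nrpe1, and 0 were lower in mom1 replicate 1 and mom1pial2. With under 50% of windows elsewhere 0 were lower in mom1pial2, since SADHU5-1 drops out.

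The median in mom1 replicate 1 was -0.030 over entries that share no interval, and that in pial2 was -0.0094 with no filter. Members at 1 FPKM or more numbered 12, 11, 12, 12, 12, 9, 12 and 11 over entries that share no interval, in WT replicates 1 and 2, mom1 replicates 1 and 2, pial1/2, pial2, mom1pial2 and nrpe1. No log2 ratio of a called member changed sign with a pseudocount of 0.1 FPKM, with no pseudocount or with centring, settings added after seeing the data. AT5G44925.1 and AT3G54823.1 were not tested by the authors in 4 and 5 tables, for reasons that were not tested, and the pseudocount of 1 FPKM compresses ratios of entries below it.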

Other observations

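Several arm entries reached 1 FPKM in some libraries and were called in none. AT3G20085.1, a 176-base entry that the annotation notes as similar to copia retroelements, was at 2.39 FPKM in mom1 replicate 2 and listed at 0 in the other 7 libraries. The entry is shorter than the length offset of 210 bases fitted for that library, so the number of fragments behind its value could not be recovered. AT4G12200.1 was at 0.117 and 1.14 FPKM in WT, 0.0591 and 0.314 FPKM in mom1, 0.0518 FPKM in pial1/2, 0.862 FPKM in pial2, 1.72 FPKM in mom1pial2 and 0.552 FPKM in nrpe1. AT2G23330.1 was at 1.77 to 2.33 FPKM in the libraries that share WT replicate 1 and at 0.511 to 0.898 FPKM in the others. The entry AT5G16505.1 of the MUG4 locus was listed at 0.00442 FPKM in WT replicate 1 and 1.11 FPKM in mom1 replicate 1 with a status of low data. The entry of the locus without a suffix went the other way, at 1.13 and 0.115 FPKM in the same libraries, while AT5G16505.2 carries the level of the locus.

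Of the 380 loci, 243 had a relative of at least 200 aligned bases among the suffixed loci, whose best match lay inside the windows for 153 and on an arm for 90. The best match of AT4G04130.1 was AT3G42690 in the chromosome 3 window, at 77.7% identity over 879 bases, and that of AT3G13270.1 was AT4G07790 in the chromosome 4 window, at 79.5% over 2310 bases. AT3G54823.1 matched AT2G05610 in the chromosome 2 window at 71.1% over 2445 bases. A further 829 arm entries that the annotation classes as pseudogenes carry no suffix and lie outside the rule.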
